A study of Mus musculus with 15 samples.

Results

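Mitogen-activated protein (MAP) kinases are the last step of a relay in which a MAP3 kinase phosphorylates a MAP2 kinase, which phosphorylates a MAP kinase. Map3k3 and its close relative Map3k2 feed the branch that runs through Map2k5 to Mapk7, also called ERK5, while Map3k1, Map3k4 and Map3k5 feed Map2k4 and Map2k7, which activate the stress kinase JNK and, for Map2k4, also p38. In mouse embryonic stem cells the MAP kinase pathways are known for moving cells out of self-renewal and into differentiation. The genes described here are 10 members of this relay, namely Map3k3, Map3k2, Map3k1, Map3k4, Map3k5, Map2k5, Map2k4, Map2k7, Mapk7 and Mapk14. Their choice followed their place in this relay and was made with earlier results of these data known. They were represented by 16 of the 55681 probes on the array, all 16 were well above background on all 15 arrays and passed the detection filter, and the 10 genes were all among the 14441 genes tested.

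RNA was hybridised to 15 single-colour Agilent arrays, 3 for each of 5 groups of mouse embryonic stem cells grown on gelatin. The groups were Nat1-null cells with a doxycycline (Dox)-inducible Map3k3 transgene grown with Dox, the same Map3k3 line grown without Dox, Nat1-null cells with an inducible EGFP transgene grown with Dox, Nat1-null cells with no transgene, and wild-type (WT) cells. The loss of Nat1 was thus shared by the first 4 groups. EGFP is a fluorescent protein that serves as the control transgene, and Dox switches a tet-controlled transgene on. The sources used here give neither the number of clones, nor the parent line of the null cells, nor the dose and duration of Dox, so effects of a clone and of the gene cannot be told apart. Nothing in the labels tells whether samples 1 to 3 of a group came from separate cultures, and p-values therefore cover only the spread among the arrays at hand, which may be technical. All values below are log2 signals relative to the 75th percentile of the array, so a level can be compared between arrays for 1 probe but not between probes.

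On the linear scale, the arrays had a 75th percentile of 495 to 615, and the share of probes called detected by the scanner software ran from 42.7% on array 2 of the Map3k3 cells with Dox up to 53.9%. This share ran from 50.8% to 53.9% in row 1 of the slides and from 42.7% to 49.1% in row 2. All WT arrays, at 53.6% to 53.9%, lay in row 1. All arrays of Nat1-null cells with no transgene, at 47.3% to 48.8%, lay in row 2, so row and group coincide in the comparison of these groups. The gene the labels call Nat1 is now named Eif4g2 and encodes a translation initiation factor. Its signal was 1.60 ± 0.06 in Map3k3 cells with Dox, 1.62 ± 0.17 in Map3k3 cells without Dox, 1.56 ± 0.26 in EGFP cells, 1.71 ± 0.20 in Nat1-null cells and 4.31 ± 0.15 in WT cells (SD, n = 3 each). The sources used here do not say whether this probe lies inside the deletion. All 7 embryonic stem cell markers examined were well above background on every array of every group. The log2 of their summed signal ranged from 9.78 to 9.86 in Map3k3 cells with Dox, from 10.12 to 10.21 in Map3k3 cells without Dox, from 10.15 to 10.18 in EGFP cells, from 10.18 to 10.24 in Nat1-null cells and from 9.40 to 9.50 in WT cells. Of 6 measured trophectoderm markers, 6 were above background on every array in Map3k3 cells with Dox and in WT cells, and 3 in each of the other groups. The log2 of their summed signal ranged from 8.33 to 8.58 in Map3k3 cells with Dox, from 2.91 to 4.20 in Map3k3 cells without Dox, from 2.81 to 4.15 in EGFP cells, from 2.91 to 4.30 in Nat1-null cells and from 7.44 to 7.48 in WT cells, and Cdx2 was above background on no array of the 3 groups of null cells without induced Map3k3. Krt18 made up most of this summed signal. Its means were 8.28, 3.31, 3.28, 3.40 and 7.30 in the same order of groups. For 5 measured fibroblast or feeder markers the log2 of summed signal ranged from 0.41 to 0.77 in Map3k3 cells with Dox, from 1.23 to 1.33 in Map3k3 cells without Dox, from 1.20 to 1.37 in EGFP cells, from 1.56 to 1.75 in Nat1-null cells and from 4.87 to 4.98 in WT cells. The lower sum with Dox than without went with Thy1, at means of -0.27 and 1.08. Col3a1 was also lower with Dox (-4.60 against -4.21). Col1a1 (-0.89 against -2.48), Col1a2 (-4.30 against -4.80) and Acta2 (-4.05 against -4.79) were higher. Col1a2 and Acta2 were above background on no array of the Map3k3 cells without Dox, the EGFP cells and the Nat1-null cells. For 5 measured primitive endoderm markers the log2 of summed signal lay between -0.15 and -0.05 in Map3k3 cells with Dox, between -2.62 and -2.15 in Map3k3 cells without Dox, between -2.70 and -2.48 in EGFP cells, between -2.60 and -2.22 in Nat1-null cells and between -1.08 and -0.98 in WT cells. Sox17, Foxa2 and Dab2 were above background on no array of the Map3k3 cells without Dox, the EGFP cells and the Nat1-null cells. Sox17 was above background on no WT array either, and Dab2 on only 1 array of the Map3k3 cells with Dox. These marker levels move with the groups compared below, and their part in the differences of the cascade genes was not tested.

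A gene was called, and is said to have risen or fallen, when a limma fit over all 14441 genes gave it an adjusted p below 0.05 together with a difference of 1.5-fold or more. Between Nat1-null and WT cells 2 of the 10 cascade genes were called, both higher, while 37.7% of all genes were called, 17.2% higher and 20.5% lower. Between Map3k3 cells with and without Dox 1 of 10 was called, lower, while 17.9% of all genes were called, 12.3% higher and 5.58% lower. Between Map3k3 cells with Dox and EGFP cells none was called by limma, 5 of 10 had an unadjusted p under 0.05, and 18% of all genes were called, 12.4% higher and 5.64% lower. Between Map3k3 cells with Dox and WT cells 3 of 10 were called, all higher, where 38.2% of all genes were called, 18.3% higher and 19.9% lower. All arrays of these Map3k3 cells lay on slide 1 and all WT arrays on slide 2, so slide and group coincide in every difference between them. With slide as a block, where only the EGFP arrays link the slides, 3 of 10 were called and 4420 of all genes, against 5517. Neither the EGFP cells nor the Map3k3 cells without Dox differed from Nat1-null cells in a called cascade gene, none of the 10 had an unadjusted p under 0.05 in either comparison, and 0.00692% and 0% of all genes were called. The 1 gene called there was Tfap2a, higher in EGFP cells, and it was looked up after its value was seen. The share of all genes with an unadjusted p under 0.05 was not computed, so the unadjusted counts cannot be set against it. These comparisons share arrays, the Map3k3 arrays with Dox in 3 of them and the Nat1-null and WT arrays in others, so their results are not independent of each other.

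With no fold minimum, 8 of 10 cascade genes differed between Nat1-null and WT cells, against 63% of all genes. Between Map3k3 cells with and without Dox the count was 3 of 10, against 39.8% of all genes. It was 4 of 10 against EGFP cells, where 41.4% of all genes passed, and 7 of 10 against WT cells, where 61.7% passed. The median absolute log2 difference of the 10 genes was 0.32 between Nat1-null and WT cells, beside 0.45 over all genes. It was 0.16 beside 0.27 between Map3k3 cells with and without Dox, 0.20 beside 0.28 against EGFP cells and 0.27 beside 0.46 against WT cells.

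**Figure D1:**
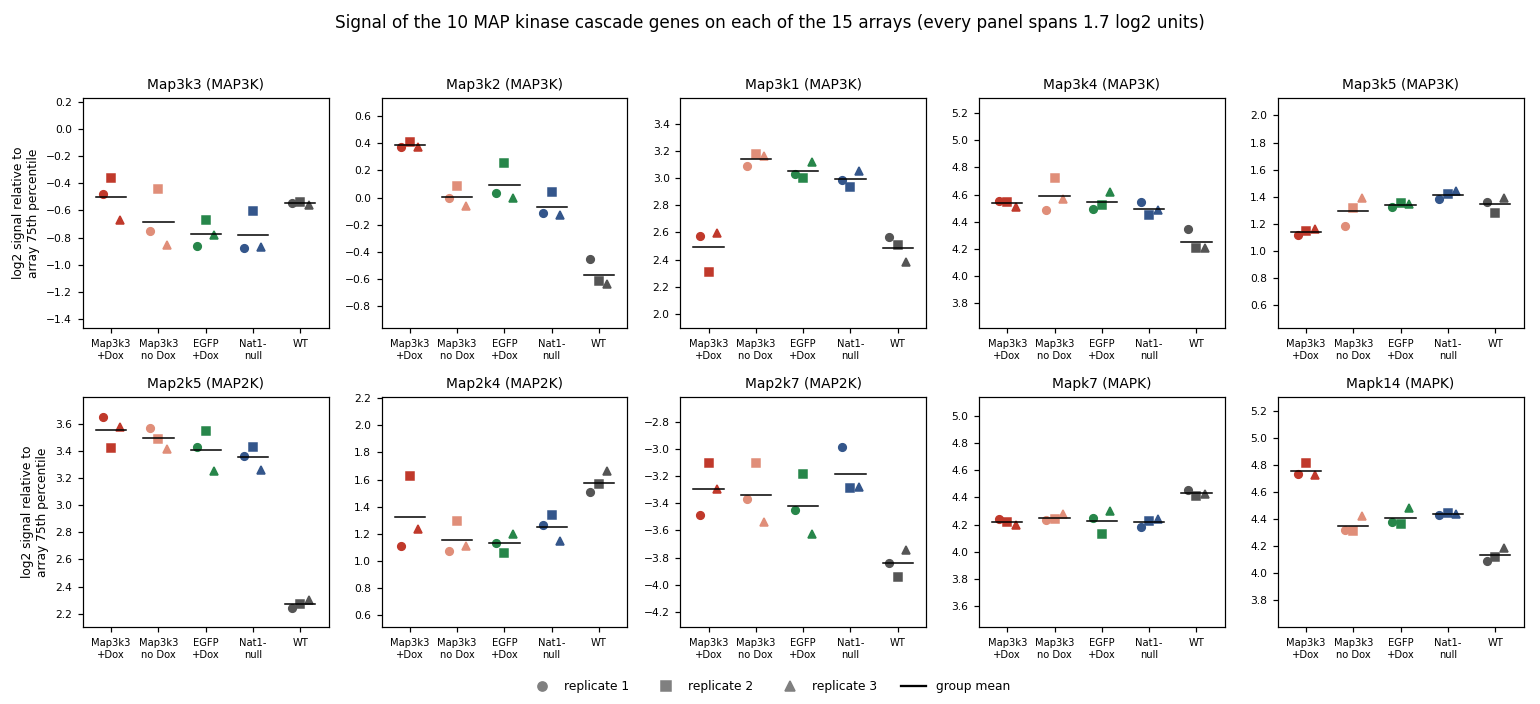
Each panel shows 1 cascade gene by its brightest probe, with log2 signal after subtraction of the array's 75th percentile on the vertical axis and the 5 groups on the horizontal axis. Points are the 3 arrays of a group, marked by replicate number, and bars are group means. Map2k5 separates the 12 null arrays, at 3.25 to 3.65, from the WT arrays, at 2.24 to 2.30, and Map3k1 is low in Map3k3 cells with Dox and in WT cells.

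**Figure D2:**
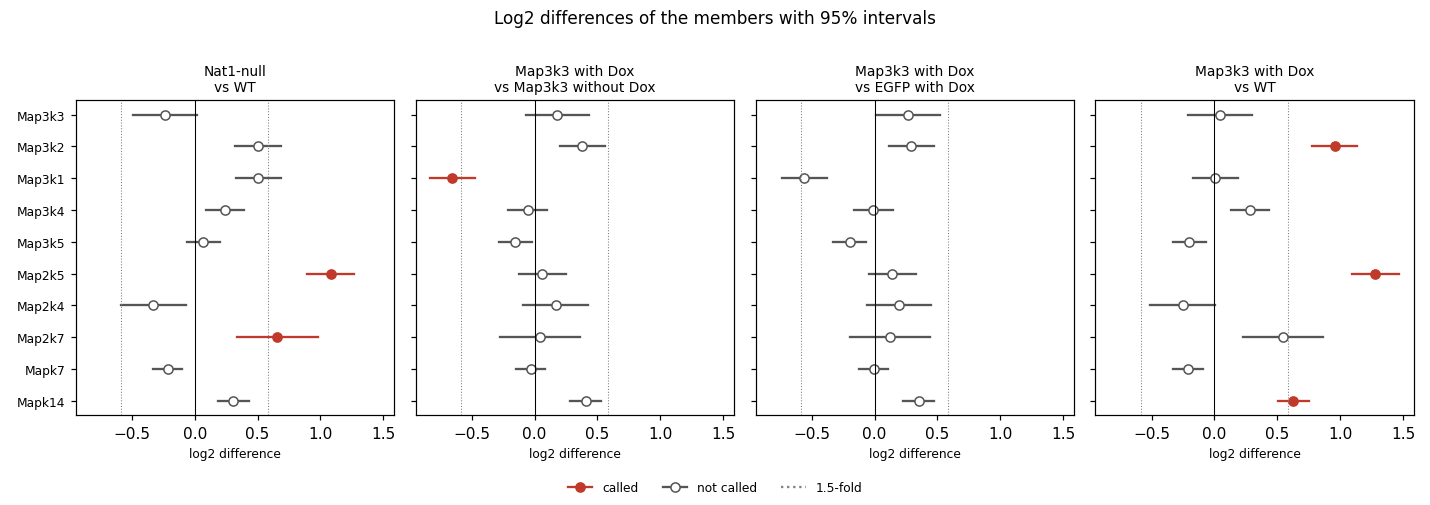
Log2 differences of the 10 cascade genes in 4 comparisons, with 95% intervals from the limma fit as horizontal lines and dotted lines at 1.5-fold. Filled red points were called. Map2k5 lies farthest to the right in both comparisons with WT cells, at 1.08 and 1.28, and Map3k1 lies farthest to the left in both comparisons of induced Map3k3 with null controls, at -0.65 and -0.56.

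Map3k3 (chr11:106084587-106156656 in GRCm38.p6, as all positions below) encodes the MAP3 kinase that the transgene expresses. Its probe lay in 10 spots on each array, 1 of which was left out on 1 array of the Map3k3 cells without Dox. The SD between all spots of an array, the left-out one included, ranged from 0.06 to 0.16. Its signal was -0.48, -0.36 and -0.67 on the arrays of Map3k3 cells with Dox, against -0.75, -0.44 and -0.86 in Map3k3 cells without Dox. It was -0.86, -0.67 and -0.78 in EGFP cells, -0.88, -0.60 and -0.87 in Nat1-null cells and -0.54, -0.54 and -0.56 in WT cells. The arrays with Dox overlapped those without Dox, and lay above those of the EGFP cells by a small margin, and array 2 was the highest of its group in every group of null cells. With Dox the probe read 0.18 higher than without (SE 0.12, 95% interval -0.07 to 0.44, adjusted p = 0.236) and 0.27 higher than in EGFP cells (SE 0.12, 95% interval 0.01 to 0.52, adjusted p = 0.0860). Between arrays of equal replicate number the induced array was higher in 3 of 3 pairs, by 0.27, 0.08 and 0.19 against cells without Dox and by 0.38, 0.31 and 0.11 against EGFP cells. With the replicate number as a block the adjusted p of limma was 0.0824 against cells without Dox and 0.0180 against EGFP cells, where the difference stayed under 1.5-fold. Between Nat1-null and WT cells the difference was -0.24 (SE 0.12, adjusted p = 0.0950), with no overlap of the arrays. None of the 6 comparisons was called for this gene. The sources used here do not say whether the probe sequence occurs in the transgene, so its level does not check the induction.

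**Figure D3:**
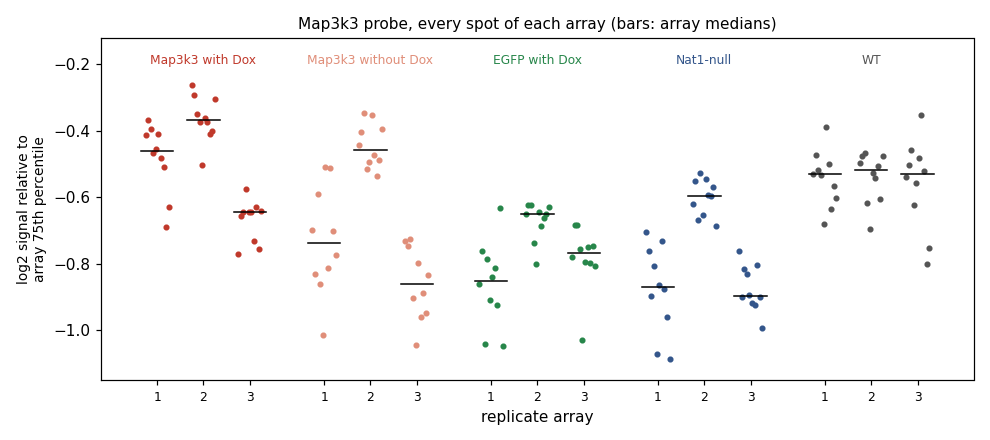
Every spot of the Map3k3 probe on each of the 15 arrays, as log2 signal after subtraction of the array's 75th percentile, with bars at the array medians. Spots of the Map3k3 cells with Dox range from -0.77 to -0.26 and those of the cells without Dox from -1.04 to -0.35, so the spots of these groups overlap.

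By Pearson's r over the 15 arrays, the named genes most like Map3k3 were Ptprj (0.936), Spire1 (0.933), Crem (0.930), Prkx (0.920) and Ifngr2 (0.920). Ptprj encodes a receptor tyrosine phosphatase and Ifngr2 a subunit of the interferon gamma receptor. The 15 points share array scaling and fall into 5 groups, so these values describe likeness over these arrays. All 5 of these genes had their highest group means in Map3k3 cells with Dox and in WT cells.

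Map3k2 encodes the kinase most similar to Map3k3, with which it shares Map2k5 as a substrate. Its signal was 0.37, 0.41 and 0.37 in Map3k3 cells with Dox, against -0.45, -0.62 and -0.64 in WT cells. By this brighter probe every null array lay above every WT array, and the arrays with induced Map3k3 were the highest. By the dimmer probe the induced arrays were also the highest, but other null arrays overlapped the WT arrays. Nat1-null array 3, at -3.136, lay below WT array 3, at -3.130. The gene rose 1.94-fold in Map3k3 cells with Dox against WT cells (log2 difference 0.96, SE 0.08, adjusted p = 1.03e-06), and its dimmer probe was also called there, at 0.77. Between Nat1-null cells, at -0.11, 0.04 and -0.13, and WT cells the difference was 0.50 (SE 0.08, adjusted p = 0.000204), under the fold minimum. By the dimmer probe it was 0.23 (SE 0.12, adjusted p = 0.126). Against Map3k3 cells without Dox, at -0.01, 0.09 and -0.06, induced cells were 0.38 higher (adjusted p = 0.00341) and against EGFP cells, at 0.03, 0.25 and 0.00, they were 0.29 higher (adjusted p = 0.0141). In these 2 comparisons the arrays did not overlap, though neither reached 1.5-fold. The dimmer probe differed by 0.50 and 0.27 (adjusted p = 0.0076 and 0.106), also not called.

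Map3k1 (chr13:111746428-111818269) encodes a MAP3 kinase that also carries a ubiquitin ligase domain and acts on the JNK branch. It was the only cascade gene called between Map3k3 cells with and without Dox. Its signal was 2.57, 2.31 and 2.59 with Dox, against 3.09, 3.18 and 3.17 without Dox, with no overlap. It fell 1.57-fold (log2 difference -0.65, SE 0.08, adjusted p = 6.74e-05), and its other probe fell as well (-0.61, SE 0.08). In bulk samples fewer cells of a type and less RNA per cell cannot be told apart. Without array 2 of the induced cells, the lowest, the difference was -0.56 and the call was lost, and with slide row as a block it was -0.58 and not called. Within slide 1 and row 1, 1 induced array lay 0.57 below the 3 arrays without Dox.

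EGFP cells had 3.03, 3.00 and 3.12 for Map3k1, so the difference of induced Map3k3 against them was -0.56 (SE 0.08, adjusted p = 0.000211), 1.47-fold and just under the fold minimum. The other probe of the gene was called in this comparison, at -0.67, and the mean of both probes was called at -0.61. Without array 1 or array 3 of the induced cells the brighter probe was called too, at -0.60 and -0.61. Within slide 1 and row 2 the difference over 2 arrays each was -0.57. Nat1-null cells had 2.99, 2.94 and 3.06, against 2.57, 2.50 and 2.39 in WT cells. This difference of 0.51 (SE 0.08, adjusted p = 0.000175) was under the fold minimum, and was called at 0.62 with slide row as a block. Induced Map3k3 cells and WT cells differed by 0.01 (95% interval -0.17 to 0.18) and their arrays overlapped. In order of group means, the cells without Dox, the EGFP cells and the Nat1-null cells were high and near each other, and the induced cells and the WT cells were low.

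Map3k4 (chr17:12227621-12318796) encodes a MAP3 kinase that acts on p38 and JNK. Its signal ranged from 4.45 to 4.72 over the 12 null arrays and from 4.20 to 4.35 over the WT arrays, with no overlap. Nat1-null cells were 0.24 higher than WT cells (SE 0.07, adjusted p = 0.0101) and induced Map3k3 cells 0.28 higher (SE 0.07, adjusted p = 0.00393), both under the fold minimum. Induced and uninduced Map3k3 cells differed by -0.06 (95% interval -0.21 to 0.10).

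Map3k5 (chr10:19934101-20142750), also known as ASK1, encodes a MAP3 kinase that responds to oxidative stress. Its 2 probes disagreed, with a Pearson's r of -0.75 over the 15 arrays. The brighter probe read 1.12, 1.15 and 1.16 in Map3k3 cells with Dox, against 1.18, 1.32 and 1.39 without Dox and 1.32, 1.36 and 1.35 in EGFP cells. The dimmer probe read -1.65, -2.18 and -1.85 in Map3k3 cells with Dox, against -2.85, -3.22 and -2.85 without Dox and -3.00, -3.74 and -2.83 in EGFP cells. Neither probe overlapped between induced cells and these controls, but the brighter one was lower and the dimmer one higher. By the brighter probe the differences were -0.15 (adjusted p = 0.0621) against cells without Dox and -0.20 (adjusted p = 0.0200) against EGFP cells, and neither was called. By the dimmer probe, fitted beside all other probes, the signal was 1.08 higher (SE 0.21, adjusted p = 0.0023) and 1.30 higher (SE 0.21), and both were called, as was 0.73 against WT cells. With the mean of both probes the differences were 0.46 and 0.55, of opposite sign to the brighter probe, and the gene was called in none of the 3 comparisons. No direction for the gene can be given from these probes, and the sources used here do not say which transcripts each one detects.

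**Figure D4:**
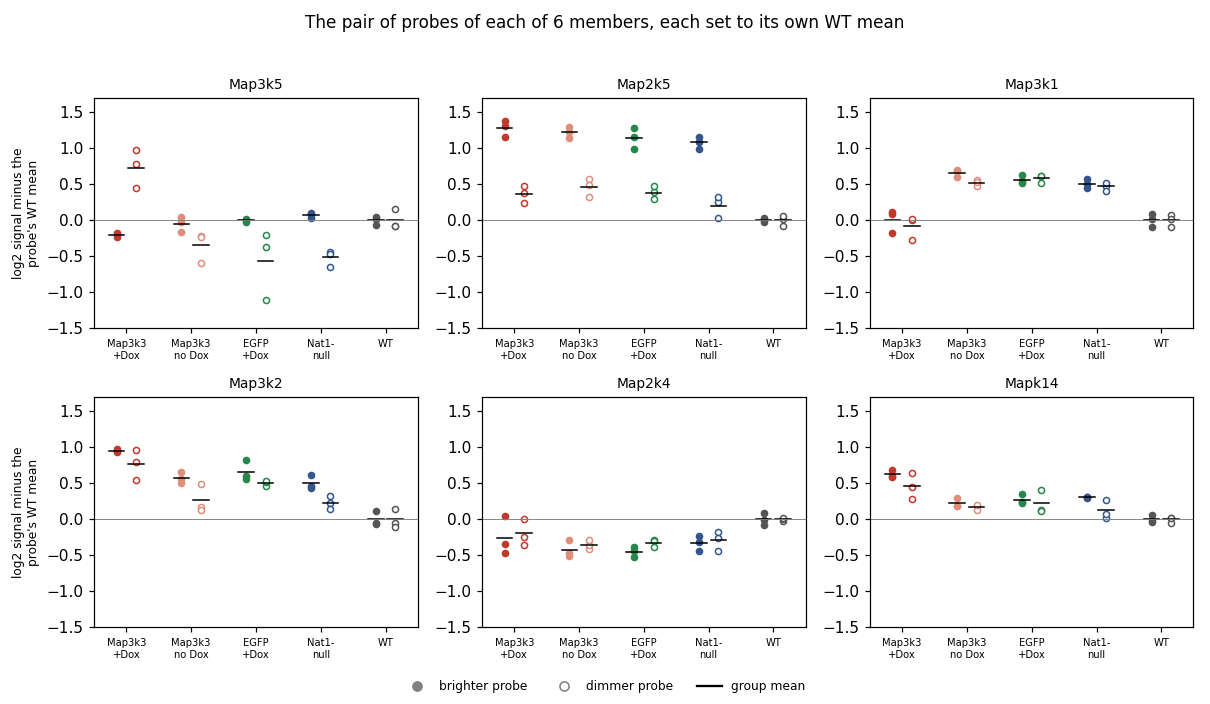
The 6 cascade genes with a pair of probes, each probe set to its own mean in WT cells, as log2 signal on the vertical axis. Filled points are the brighter probe, open points the dimmer one, and bars group means over 3 arrays. In Map3k3 cells with Dox the probes of Map3k5 part, the dimmer one 0.73 above its WT mean and the brighter one 0.20 below, while the probes of Map3k1 move together.

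Promoters are shown for 3 of the called genes, Map2k5, Map3k1 and Mapk14. The RefSeq promoter table of build GRCm38.p6 held 13 promoters for 9 of the 10 genes, all but Map3k2, and the 250 bases before each start were searched. The AP-1 motif TGANTCA was in 1 of these 13, upstream of a Map2k7 start, and in 6.75% of 32851 promoters. The CRE motif TGACGTCA was in 0 of 13 and in 1.55% of all, and the GC box motif GGGCGGG was in 5 of 13, of 4 genes, and in 23.4% of all. Both strands were searched, N stands for any base, and in the 13 promoters no match overlapped one of another motif. A match is a description of the letters and not a binding site. The starts used by the table can lie inside the full span of a gene. The promoter of Map2k5, at chr9:63377903-63378152 on the minus strand, held none of the 3 motifs, that of Map3k1, at chr13:111808994-111809243 on the minus strand, held 5 GC boxes, and the first of 2 for Mapk14, at chr17:28691092-28691341 on the plus strand, held 1. The sequences run 5′ to 3′ on the strand of the gene, and capitals mark motif matches.
Map2k5: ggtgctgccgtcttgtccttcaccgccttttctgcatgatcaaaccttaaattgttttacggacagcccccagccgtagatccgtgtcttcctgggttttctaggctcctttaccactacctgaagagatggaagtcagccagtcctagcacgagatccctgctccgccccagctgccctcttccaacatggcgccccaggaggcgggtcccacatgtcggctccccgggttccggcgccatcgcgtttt
Map3k1: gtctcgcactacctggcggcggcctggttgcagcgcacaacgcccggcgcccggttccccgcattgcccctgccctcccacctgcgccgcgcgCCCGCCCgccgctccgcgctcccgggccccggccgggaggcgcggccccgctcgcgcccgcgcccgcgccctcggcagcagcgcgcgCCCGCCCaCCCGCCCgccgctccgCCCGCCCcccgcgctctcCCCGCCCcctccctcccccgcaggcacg
Mapk14: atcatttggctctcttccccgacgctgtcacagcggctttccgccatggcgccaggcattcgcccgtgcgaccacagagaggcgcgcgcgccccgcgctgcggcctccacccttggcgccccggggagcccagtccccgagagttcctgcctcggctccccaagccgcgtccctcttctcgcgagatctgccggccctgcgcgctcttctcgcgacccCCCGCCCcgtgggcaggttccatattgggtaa

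Among the MAP2 kinases, Map2k5 (chr9:63163768-63381682) encodes MEK5, the kinase that phosphorylates Mapk7. It had the widest range of group means of the 10 genes, 1.28. Its signal was 3.36, 3.43 and 3.26 in Nat1-null cells, against 2.24, 2.27 and 2.30 in WT cells, and the gap between the groups was wider than the spread of either. It rose 2.12-fold in Nat1-null cells (log2 difference 1.08, SE 0.09, adjusted p = 5.09e-07), and 2.43-fold in Map3k3 cells with Dox, at 3.65, 3.42 and 3.58, against WT cells (1.28, SE 0.09, adjusted p = 1.26e-07). Its dimmer probe moved less, by 0.20 in Nat1-null against WT cells (SE 0.10, adjusted p = 0.0999) and by 0.37 in induced Map3k3 against WT cells, and was called in neither, so the size of the rise differs between the probes. The mean of both probes was called in both comparisons, at 0.64 and 0.83.

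In Map3k3 cells without Dox Map2k5 read 3.57, 3.49 and 3.42 and in EGFP cells 3.43, 3.55 and 3.25, so the 4 groups of null cells overlapped. Induced cells differed from cells without Dox by 0.06 (95% interval -0.13 to 0.25) and from EGFP cells by 0.14 (95% interval -0.05 to 0.33). The arrays of the Nat1-null cells with no transgene and of the WT cells lay on 1 slide in different rows. With row as a block the difference between Nat1-null and WT cells was 1.04 and called, and within slide 2 and row 1, 1 EGFP array lay 0.98 above the 3 WT arrays. The named genes most like Map2k5 over the 15 arrays were Tmem51 (r = 0.991), Parvb (0.989), Ttc39b (0.989), Rapgef3 (0.985) and Sema3f (0.985). Each of these 5 also had its lowest group mean in WT cells. Rapgef3 encodes an exchange factor that cAMP activates and Sema3f a secreted semaphorin.

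Map2k7 (chr8:4238740-4247897) encodes an activator of JNK. Its signal was -2.99, -3.29 and -3.28 in Nat1-null cells, against -3.84, -3.94 and -3.74 in WT cells, with no overlap. It rose 1.58-fold in Nat1-null cells (log2 difference 0.66, SE 0.15, adjusted p = 0.00186). The call was lost without array 1 of the Nat1-null cells, where the difference was 0.56, with normexp background correction, at 0.39, and with slide row as a block, at 0.36 (adjusted p = 0.132). Within slide 2 and row 1 the EGFP array lay 0.22 above the WT arrays. The Map2k7 probe was dim, and its WT signals lay near the median of all probes on those arrays, -3.86, -3.93 and -3.90 in the authors' values. In Map3k3 cells with Dox the gene read -3.48, -3.10 and -3.30, a difference of 0.55 from WT cells that was under the fold minimum (adjusted p = 0.00596), and the arrays did not overlap. It was called with quantile normalization, at 0.69, without WT array 3, at 0.60, and without array 1 with Dox, at 0.64. Against cells without Dox, at -3.37, -3.10 and -3.54, the difference was 0.04 (95% interval -0.28 to 0.36).

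Map2k4 (chr11:65688244-65788359) encodes an activator of JNK and p38. Its signal was 1.26, 1.34 and 1.14 in Nat1-null cells, against 1.51, 1.57 and 1.66 in WT cells, lower on every Nat1-null array but not called (log2 difference -0.33, SE 0.12, adjusted p = 0.0281). Induced Map3k3 cells had 1.11, 1.63 and 1.24, the widest spread of the 5 groups, and overlapped the WT arrays as well as the arrays without Dox.

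Among the MAP kinases themselves, Mapk14 (chr17:28691342-28748405) encodes p38 alpha, a stress kinase. Its signal was 4.74, 4.81 and 4.73 in Map3k3 cells with Dox, against 4.32, 4.31 and 4.42 without Dox and 4.38, 4.36 and 4.48 in EGFP cells. By this brighter probe the induced arrays were the highest throughout. Their differences of 0.41 (SE 0.06, adjusted p = 0.000165) and 0.35 (SE 0.06, adjusted p = 0.000457) did not reach 1.5-fold. By the dimmer probe the differences were 0.29 and 0.24, neither called. Its induced array 1, at -1.78, lay below EGFP array 3, at -1.66. Against WT cells, at 4.09, 4.12 and 4.19, Mapk14 rose 1.54-fold with induced Map3k3 (log2 difference 0.63, SE 0.06, adjusted p = 1.57e-06). The call was lost with normexp background correction, at 0.58, and with the mean of the gene's probes, at 0.54. The dimmer probe read 0.46 higher and was not called. Nat1-null cells, at 4.43, 4.45 and 4.44, were 0.31 above WT cells (adjusted p = 0.000507) and not called. The dimmer probe was 0.12 higher there (SE 0.10) and not called either.

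Mapk7 (chr11:61488812-61494267) encodes ERK5, the kinase at the end of the branch that Map3k3 feeds. It had the narrowest range of group means of the 10 genes, 0.21. The 12 null arrays read 4.13 to 4.30 and the WT arrays 4.41 to 4.45, without overlap. Nat1-null cells were lower by 0.21 on the log2 scale than WT cells (log2 difference -0.21, SE 0.05, adjusted p = 0.00416), as were induced Map3k3 cells (-0.21, SE 0.05, adjusted p = 0.00469), and neither was called. Induced and uninduced Map3k3 cells differed by -0.03 (95% interval -0.15 to 0.09). Over the 15 arrays, which fall into 5 groups and share array scaling, Mapk7 and Map2k5 ran opposite to each other (Pearson's r = -0.917), while Map2k5 ran with Map3k2 (r = 0.895).

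Other genes of the pathway were taken from 6 lists with 74 genes, of which 65 were measured. Between Nat1-null and WT cells 13 rose, 14 fell and 38 were not called, with a median log2 difference of 0.09 beside 0.07 over all genes. The 27 called were 41.5% of the lists, near the 37.7% of all genes (17.2% higher and 20.5% lower). Of 11 other MAP kinases 1 rose and 4 fell, and of 4 other MAP2 kinases 2 rose and none fell. Of 16 other MAP3 kinases 4 rose and 1 fell, of 16 partners and scaffolds 3 rose and 6 fell, of 11 MAPK-activated kinases 1 rose, and of 7 ERK5 effectors and targets 2 rose and 3 fell. Among all lists the largest rises were of Klf4, a pluripotency transcription factor and ERK5 target, 9.58-fold (log2 difference 3.26, SE 0.08), Sgk1, a serum-inducible kinase, 3.28-fold (1.72, SE 0.29), and Taok3, a MAP3 kinase, 2.73-fold (1.45, SE 0.27). Falls were ranked among genes well above background on at least 1 array of each group. The largest were of Mapk8ip2, a JNK scaffold, 6.29-fold (-2.65, SE 0.31), and Map3k15, a MAP3 kinase related to Map3k5, 4.32-fold (-2.11, SE 0.17). Next came Sqstm1, an autophagy receptor and signalling scaffold, 2.17-fold (-1.12, SE 0.22). Mapk10, a JNK found mostly in neurons, and Mef2b, a transcription factor, were well above background on no array of the Nat1-null cells, so their falls of at least 2.03-fold and at least 1.62-fold are bounds that have no rank.

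Between Map3k3 cells with and without Dox 7 of the 65 rose, 3 fell and 55 were not called, and the median log2 difference was -0.02 beside -0.07 over all genes. The 10 called were 15.4% of the lists, near the 17.9% of all genes (12.3% higher and 5.58% lower). Of 11 other MAP kinases 3 rose, and of 16 partners and scaffolds 2 rose and 1 fell. Mapk6, an atypical MAP kinase, averaged 5.30 ± 0.20 with Dox and 3.80 ± 0.07 without (SD, n = 3 each), and rose 2.82-fold (adjusted p = 2.57e-07). Mapk13, or p38 delta, rose 2.09-fold (1.06, SE 0.21) and Mef2d, a transcription factor that ERK5 activates, 1.95-fold (0.96, SE 0.18). Mapk8ip2 fell 1.84-fold (-0.88, adjusted p = 0.0416), Taok2, a MAP3 kinase, 1.55-fold (-0.63) and Rps6ka5, a kinase downstream of p38, 1.52-fold (-0.60). Mapk8ip2 was called under 13 of 28 alternatives. The call of Taok2 was lost without array 2 with Dox, at -0.49, and that of Rps6ka5 without array 2 without Dox, at -0.48, or array 3 with Dox, at -0.58, and both were lost with normexp background correction, at -0.53 and -0.45.

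Against EGFP cells 7 of the 65 rose, 1 fell and 57 were not called in induced Map3k3 cells, with a median of -0.05 beside -0.09 over all genes. The 8 called were 12.3% of the lists, against 18% of all genes. Mapk6 averaged 5.30 ± 0.20 in induced Map3k3 cells and 3.86 ± 0.13 in EGFP cells (SD, n = 3 each), and rose 2.71-fold (log2 difference 1.44, SE 0.10, adjusted p = 3.64e-07). Mapk13 rose 2.07-fold and Mef2d 1.96-fold, and Rps6ka5 fell 1.59-fold, a call lost with normexp background correction, at -0.54. Against WT cells 16 of the 65 rose, 9 fell and 40 were not called, with a median of 0.17 beside -0.01. The 25 called were 38.5% of the lists, beside 38.2% of all genes. Klf4 rose 7.75-fold, Taok3 2.69-fold and Mapk4, an atypical MAP kinase, 2.60-fold. Mapk8ip2 fell 8.82-fold, Map3k15 3.93-fold and Rps6ka6, a kinase of the RSK family, 2.05-fold. Mapk10 fell at least 1.91-fold and Mef2b at least 1.52-fold, as unranked bounds. With slide as a block the call of Taok3 was lost. In the comparisons of EGFP cells and of Map3k3 cells without Dox with Nat1-null cells none of the 65 was called by limma, while 6 and 10 had an unadjusted p under 0.05. The share of all genes under that unadjusted threshold was not computed.

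**Figure D5:**
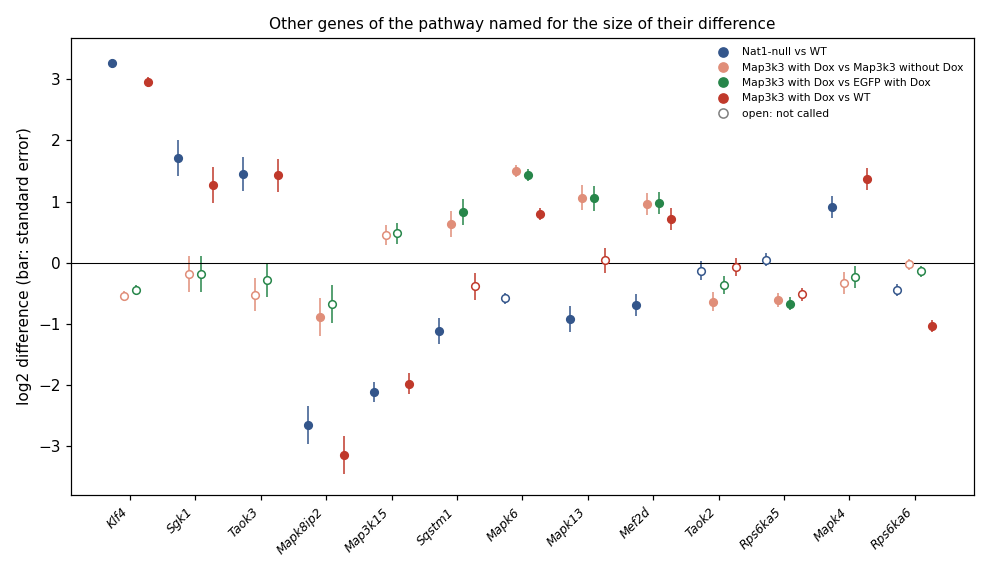
Log2 differences of the 13 pathway genes outside the cascade with the largest called differences among those measured in both groups, in 4 comparisons, with bars for the standard error. Filled points were called. Klf4 lies highest, at 3.26 and 2.95 in the comparisons with WT cells, and Mapk6 has the largest difference of induced Map3k3 from EGFP cells, at 1.44.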

How the data were processed

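The authors scanned the arrays with Feature Extraction 11.5.1.1, per the file headers, and the processed green signal of the deposited tables is an intensity already corrected for background. Here it was turned to log2, spots of a probe were averaged without spots marked as outliers, and the array's 75th percentile over probes was subtracted. The log2 values of the authors' deposited table correlated with these at 1 on every array, with a median difference of at most 0.00704. No spot was saturated. Gene symbols came from RefSeq accessions (GRCm38.p6) for 28331 of 55681 probes. Probes entered the tests if some group had them well above background on each of its 3 arrays, and the brightest kept probe stood for its gene.

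One limma fit (limma 3.58.1, R 4.3.3) with a mean for each of 5 groups and 10 residual degrees of freedom gave two-sided p-values, adjusted over 14441 genes by Benjamini-Hochberg. Probes were also fitted singly. The fit was tested on simulated data. The small number of arrays limits the precision. Named pathway genes were the 3 called genes of largest change each way over the lists, ranked among genes measured in both groups, with bounds named apart. The members and lists were chosen with earlier results of these data known.

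Slide 1 held the Map3k3 arrays and EGFP arrays 1 and 2, and slide 2 the others. Deviations of arrays with equal replicate numbers correlated at 0.154, 0.318 and 0.252 between Map3k3 cells with and without Dox, at 0.101, 0.316 and 0.193 between those with Dox and EGFP cells, and at 0.251 to 0.617 for both comparisons with Nat1-null cells. For the 2 comparisons with WT cells they lay between -0.03 and 0.06. Correlations between arrays of unlike number were not computed. The numbers were taken to pair the null samples only in the replicate block, and the main fit was unpaired. Normexp used median signals. Alternatives were normexp, quantile normalization, the authors' values, 2 other filters, other ways to combine probes, no fold minimum, the replicate number, slide or slide row as a block, the groups compared alone and each array left out.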

Additional observations from a re-analysis of the deposited data

How the results depend on the processing

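Each count was recomputed under 28 alternatives, 1 of them, the percentile over spots, chosen after seeing the data. Of 1680 recomputed member differences 1650 stayed on the same side of the threshold, 23 gained a call and 7 lost one. None of the called ones turned, and 52 uncalled ones changed sign. The 1650 overstate stability, since every array was left out in every comparison. Leaving out an array of a group not compared could move an adjusted p but not the difference. The authors' values were also nearly those used here. With the replicate number as a block, the counts of called members were 2 for Nat1-null against WT cells, 1 for Map3k3 with against without Dox, 0 against EGFP cells and 3 against WT cells, with no call changed. Among the pathway lists the block called 1 gene, Mapk4, in Map3k3 cells without Dox against Nat1-null cells, where none was called before, and without array 2 of the Nat1-null cells 1, Rps6ka6. With no fold minimum the members called were 8, 3, 4 and 7 in these 4 comparisons and the pathway genes 44, 22, 16 and 46. Normexp background left 1 member in Nat1-null against WT cells and 6 pathway genes with against without Dox. Slide row as a block left 0 members with against without Dox, and the mean of probes gave 1 against EGFP cells. Leaving out 1 array gave 1 to 2 members in Nat1-null against WT cells, 0 to 1 with against without Dox and 0 to 1 against EGFP cells, and 6 to 11 pathway genes with against without Dox and 0 to 1 without Dox against Nat1-null cells. Over all genes, calls with no fold minimum were 9092, 5751, 5973 and 8903, against 5449, 2578, 2602 and 5517. Restricted to probes above background on all arrays, 1718 were called with against without Dox. In EGFP against Nat1-null cells 1 gene was called, against 2 with normexp, 20 with slide as a block, 0 with these groups alone and 1 to 15 without 1 array. In Map3k3 cells without Dox against Nat1-null cells none was called, against 39 with the replicate block, 13 with slide as a block, 10 with the restriction above, 2 with normexp, 2 with slide row and 0 to 24 without 1 array. The cause of these shifts was not tested. All member probes were well above background on every array, so none of their folds was given as a bound. The Map2k7 probe was dim, however, and the size of its difference depended on the background correction.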
